A study of Mus musculus with 18 samples.

Results

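The LC3 and GABARAP proteins and their autophagy receptors were followed here as 8 genes, chosen by symbol from the 30905 genes in the deposited tables. They were the 5 mouse ATG8 genes Gabarap, Gabarapl1, Gabarapl2, Map1lc3a and Map1lc3b, the receptors Sqstm1 and Optn, and Becn1. UMIs (unique molecular identifiers, each standing for 1 captured RNA molecule) were counted in single nuclei from 2 brain regions, hippocampus (Hip) and prefrontal cortex (PFC), in 9 male Kun Ming mice, all 8 weeks old, as 18 droplet-based 10x libraries, 1 for each mouse and region. There were 3 germ-free mice (GF, mice 5, 6 and 7), 3 specific pathogen-free mice (SPF, mice 30, 31 and 32) and 3 colonized germ-free mice (CGF, mice 17, 18 and 19). CGF mice began as GF mice and received a gut microbiota by co-housing with SPF mice. GF and CGF mice lived in gnotobiotic isolators, so GF and SPF mice differed in housing as well as in microbiota, and no mouse carried a transgene or a deletion. The comparison of GF with SPF mice asks what differs without a gut microbiota, and CGF mice show the level after colonization.

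ATG8 proteins are small ubiquitin-like proteins. ATG4 proteases trim them, and an E1-like and E2-like relay of ATG7 and ATG3, completed by the ATG12-ATG5-ATG16L1 complex, attaches them to phosphatidylethanolamine in the growing autophagosome membrane. The GABARAP branch (GABARAP, GABARAPL1 and GABARAPL2, also called GATE-16) and the LC3 branch (MAP1LC3A and MAP1LC3B) bind short LC3-interacting motifs, and through these the receptors p62 (Sqstm1) and optineurin (Optn) bring ubiquitinated cargo and damaged mitochondria to the membrane. Beclin 1 (Becn1) is a subunit of the lipid kinase complex that starts the membrane. Neurons, which do not divide, depend on this route to clear proteins and organelles, and microglia use ATG8 proteins also in LC3-associated phagocytosis.

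The kept nuclei numbered 71398 in Hip (25522 from GF, 22544 from SPF and 23332 from CGF mice) and 66602 in PFC (24567, 19948 and 22087). Total UMIs of the Hip libraries lay between 49067853 and 63217083. The PFC libraries reached 59126586 to 71463928 UMIs where mice were GF, but only 20336250 to 26949210 for SPF and 22213863 to 26151503 for CGF mice. The number of UMIs, called depth here, and the GF group can thus not be told apart in PFC. Reads per library were not compared. The median UMIs per nucleus did not overlap between GF and SPF libraries in either region, with 4678 to 5905 in GF and 6172.5 to 7087 in SPF libraries of Hip, and 6795.5 to 7426.5 against 3037 to 3208 in PFC. Mitochondrial genes gave 0.451 to 0.879% of UMIs in GF and 0.069 to 0.429% in the other Hip libraries, whereas in PFC they gave 0.304 to 0.556% in GF and 1.211 to 2.859% in the others. Clusters were named as excitatory neurons, interneurons, oligodendrocytes, oligodendrocyte precursors (OPC), microglia, astrocytes and vascular cells by marker lists, and each name stands for nuclei like that type. Hip also held a choroid plexus cluster (951 nuclei) and an ependymal cluster (455 nuclei), which were left out of the comparisons of levels and groups. The 8 members took no part in the clustering. GF nuclei and SPF or CGF nuclei of the same type mostly fell into different clusters (in Hip, clusters 12 against 9 for interneurons, 14 against 4 for astrocytes and 22 against 16 for microglia, and in PFC 7 and 19 against 5 and 10, 11 against 6 and 18, and 17 against 12). Clusters led by markers of another list were left unnamed, so the leading genes do not test the names. PFC excitatory clusters 0 and 8 held 42.2 and 9.71% of GF nuclei and at most 0.165% of SPF or CGF nuclei. Clusters 1, 2 and 3 held 14.3 to 17.9% of SPF and at most 0.37% of GF nuclei, and cluster 4 held 11.2 and 2.88%. Mitochondrial genes were among the leading genes of PFC clusters 2 and 3 and of Hip cluster 6, which held mainly GF nuclei. PFC excitatory neurons were not tested by subclass. PFC clusters 10 (1803 nuclei) and 19 (812 nuclei), counted as interneurons because 6 of the 8 interneuron markers were raised in each, were led by other genes, among them Rarb, Pbx3 and Rgs9 in both and Penk in 19. Rgs9 and Penk are known from projection neurons of the striatum, cluster 19 had 0 of the interneuron markers among its 10 leading genes, and these nuclei may not be interneurons. Without both clusters, GF against SPF in PFC interneurons gave -0.91 for Map1lc3a, -1.098 for Gabarapl1, 1.78 for Gabarapl2, 0.54 for Gabarap and 0.60 for Becn1, all still called, -0.29 for Optn, still not called, and 0.34 for Sqstm1, then called (adjusted p = 0.0259). Their levels and the comparisons of regions were not recomputed without them. Any 2 libraries shared between 6 and 29 nuclear barcodes.

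All 8 genes were in the tables, but Map1lc3b had 0 UMIs in every library. Over all kept nuclei that is 0 of 506761672 UMIs in Hip, which allows up to 0.00592 CPM (counts-per-million), and 0 of 338891878 in PFC, which allows up to 0.00885 (3 counts of the total, counting error only). Map1lc3b lies at chr8:121590361-121598760 on the plus strand (GRCm38), wholly inside Gm20388 (chr8:119910841-124345722, same strand), a long annotated gene that received 662067 UMIs. All 59 of the 59 listed genes inside Gm20388 on its strand had 0 UMIs, against 0 of the 49 on the opposite strand. Over the whole table, 624 of 626 genes that lie inside another listed gene on the same strand had 0 UMIs (99.7%), against 3308 of 30217 other genes (10.9%). The 0 of Map1lc3b was thus shared with nearly all nested genes, and its level could not be read here.

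The other 7 members were detected in each of the types. Summed over the named types and 9 mice, Hip held 21678 UMIs of Gabarapl2, 18027 of Gabarap, 19702 of Gabarapl1, 18052 of Map1lc3a, 25156 of Sqstm1, 6908 of Optn and 16695 of Becn1, and PFC held between 5104 (Optn) and 29902 (Map1lc3a). Gabarap lies at chr11:69991143-69994951 (plus strand), Gabarapl1 at chr6:129533160-129542346 (plus), Gabarapl2 at chr8:111940703-111953612 (plus) and Map1lc3a at chr2:155276297-155278073 (plus). Sqstm1 lies at chr11:50199366-50210827 (minus), Optn at chr2:5020642-5064051 (minus) and Becn1 at chr11:101285952-101302286 (minus). All are protein-coding, and the counts are sums over each gene and are not split by exon or intron. Sqstm1 overlaps Mrnip, Becn1 overlaps Cntd1 and Optn overlaps 4930551O13Rik, each on the opposite strand. Gabarapl1 overlaps 1700101I11Rik on the opposite strand and Gm44243 (annotated as a transcript to be experimentally checked) on its own strand, and Map1lc3b also overlaps Zcchc14 on the opposite strand.

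Gabarapl2 was the member with the largest median difference between GF and SPF mice over the types of both regions (log2 1.77 in Hip and 2.12 in PFC). Its upstream sequence is shown for that reason. In PFC excitatory neurons Gabarapl1 differed by about as much (-1.55, against 1.54 for Gabarapl2). The 250 bases before its start, chr8:111940453-111940702 on the plus strand of GRCm38.p6 from RefSeq, have 57.2% G or C, and capitals mark 2 GC boxes (CCGCCC, the reverse complement of GGGCGG).
Gabarapl2 upstream: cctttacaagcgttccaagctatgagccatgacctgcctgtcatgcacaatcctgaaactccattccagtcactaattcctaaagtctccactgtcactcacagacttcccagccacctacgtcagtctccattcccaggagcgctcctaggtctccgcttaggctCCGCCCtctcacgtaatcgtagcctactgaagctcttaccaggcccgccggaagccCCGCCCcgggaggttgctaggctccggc
Promoter windows (250 bases before to 50 after a start) were in the RefSeq table for 6 of the 8 members, all but Map1lc3a and Becn1. GGGCGG on either strand stood in 5 of the 6 windows (Optn, Gabarapl1, Gabarapl2, Map1lc3b and Sqstm1) and in 35.7% of all 32851 windows. CACGTG, the core of the element that TFEB, a transcription factor of lysosomal genes, is known to bind, stood in 0 of the 6 windows and in 7.15% of all. TATAAA stood in 1 of the 6 (Sqstm1) and in 13.6% of all. These matches are descriptions of the letters, and binding was not measured.

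Levels between cell types were compared as CPM in the sum of a mouse and type, that is UMIs of a gene over all UMIs of the sum, without scaling between libraries. Choroid plexus and ependymal nuclei of Hip were not part of these orders, so highest and lowest hold among the types compared. In Hip, Gabarap was highest in vascular cells (160.1 ± 73.7 CPM, SD, n = 9 mice of all groups) and microglia (130.0 ± 65.4), and lowest in interneurons (34.0 ± 21.6) and excitatory neurons (31.1 ± 19.1). Vascular cells exceeded microglia in 8 of 9 mice, microglia exceeded oligodendrocytes in 9 of 9, and interneurons exceeded excitatory neurons in 6 of 9, so the lowest pair was not separated beyond its spread. Gabarapl2 followed nearly the same order in Hip, from microglia (111.9 ± 81.4) and vascular cells (106.5 ± 60.8) to interneurons (44.4 ± 31.8) and excitatory neurons (42.1 ± 31.4), and microglia exceeded vascular cells in 3 of 9 mice. Gabarapl1 was high in microglia (115.7 ± 33.6) and oligodendrocytes (102.5 ± 14.2), of which microglia were the higher in 6 of 9 mice but not in the mean of GF mice (102.7 against 108.1), and lowest in interneurons and excitatory neurons (36.8 ± 8.92 and 35.7 ± 7.67). Map1lc3a ran from vascular cells (128.8 ± 44.1) and microglia (128.0 ± 54.9) down to excitatory neurons (30.9 ± 17.4) in Hip. The Hip neurons were the lowest types for each of these ATG8 genes, also in the mean of each group.

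In PFC the order of the types differed between the groups of mice, so a mean over all 9 mice is not read as an order there. Map1lc3a averaged 139.6 CPM in excitatory neurons and 141.5 in interneurons of SPF mice, level with the 139.8 of microglia, but 50.4 and 70.4 against 224.2 in GF mice. Gabarapl1 averaged 123.7 CPM in excitatory neurons of SPF mice, between oligodendrocytes (126.5) and microglia (105.1), but only 38.1 in GF mice, where it was the lowest type. Gabarapl2 was lowest in microglia in SPF mice (15.99 CPM, with 20.5 in excitatory neurons), whereas in GF mice microglia were the highest type (157.2, with 54.1 in excitatory neurons). For Gabarap, GF mice had their highest levels in vascular cells (182.9) and microglia (156.3), and SPF mice in oligodendrocytes (49.55) and vascular cells (45.9), with 35.3 in microglia.

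Among the receptors, Optn had an order of its own. It was highest in interneurons, with 47.2 ± 9.30 CPM in Hip and 37.0 ± 7.46 in PFC, and low in excitatory neurons, with 8.75 ± 1.63 and 12.4 ± 2.55, and in microglia, with 9.56 ± 5.33 and 16.4 ± 9.14. Microglia exceeded excitatory neurons in 5 of 9 mice of each region, and in the mean of GF mice they were the lower type (6.18 against 7.64 in Hip and 8.91 against 9.44 in PFC), so this pair was not separated. Interneurons exceeded oligodendrocytes, the next type (31.5 ± 7.37 and 30.0 ± 8.35), in 9 of 9 mice in Hip and 7 of 9 in PFC. Sqstm1 had means of 45.6 ± 12.7 (OPC) to 84.5 ± 19.5 (vascular cells) in Hip and 49.8 ± 11.4 to 80.2 ± 17.1 in PFC, but the order depended on the group, since microglia were highest in SPF mice of Hip (77.5, with 72.6 in vascular cells) and lowest in those of PFC (49.6, with 50.2 in OPC). Becn1 of Hip was higher in vascular cells (55.7 ± 9.41) and microglia (53.0 ± 15.5) than in excitatory neurons (34.2 ± 9.28). In PFC its order also changed with the group, as microglia had the highest mean in GF (59.4) and CGF mice (48.9) and the lowest in SPF mice (22.7, with 31.7 in excitatory neurons).

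Between GF and SPF mice, the ATG8 genes Gabarapl2 and Gabarap and, in Hip, Map1lc3a were higher in GF mice, Optn was lower in some types, and Map1lc3a and Gabarapl1 were lower in GF neurons of PFC. UMIs were summed per mouse and type and tested with edgeR's quasi-likelihood test over all genes with Benjamini-Hochberg adjustment, and CPM from here on are scaled by library factors (TMM) within a type and region. The 7 members gave 41 tests in each region, since Optn had too few counts in microglia. In Hip, 21 of 41 were higher in GF than in SPF mice and 3 lower, where 19.6% of all gene tests were higher and 16.4% lower. The median member difference in Hip was 0.56 on the log2 scale, and the medians over all genes of a type lay between -0.03 and 0.04. In PFC, 17 of 41 were higher and 5 lower, where 26.8% of all gene tests were higher and 26.6% lower. The median member difference in PFC was 0.30, and those over all genes lay between 0.01 and 0.07. All GF mice lay above all SPF mice in 25 of 41 member tests in Hip and 19 in PFC, against 25.5% and 31.5% of all gene tests. All lay below in 3 and 5, against 22.6% and 30.4% of all gene tests. By count, higher members exceeded the background share in both regions and lower members lay below it. Of the higher calls, Gabarapl2 and Gabarap gave 6 each in Hip, and 6 and 5 in PFC. The other higher calls in PFC were 5 of Becn1 and 1 of Map1lc3a, and Gabarapl1, Sqstm1 and Optn gave 0. Without Gabarapl2 and Gabarap, the share of higher calls in PFC would thus not exceed the background. The study had already named both genes as changed in Hip microglia of these mice. In Hip, Gabarap (6 calls) and Map1lc3a (4 calls) have bodies under 5 kb, a class in which 51.6 to 61.0% of genes were higher. The tests repeat 7 genes over types of the same mice, so the counts are a description only.

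**Figure D1:**
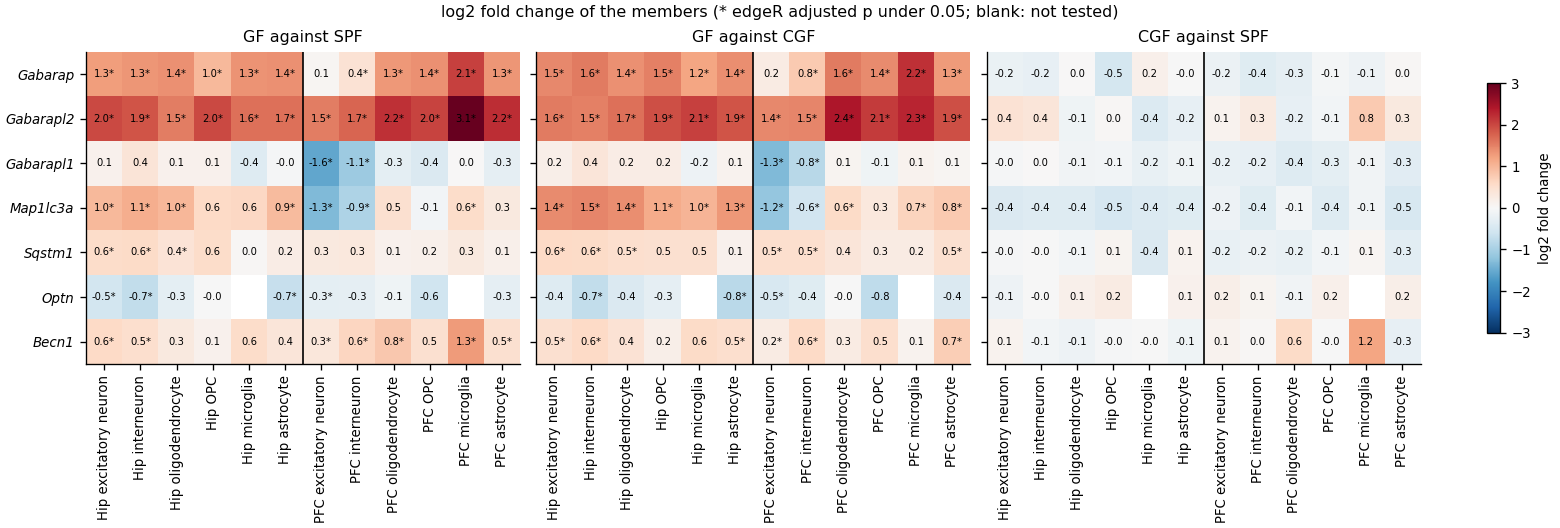
Log2 fold change of the 7 detected members (y axis) in 6 cell types of Hip and PFC (x axis), in 3 panels for GF against SPF, GF against CGF (the same GF mice) and CGF against SPF. Colour and printed value give the fold change and a star an adjusted p under 0.05. Gabarapl2 is starred and red throughout both GF panels, Gabarapl1 and Map1lc3a are starred and blue in PFC neurons of both, and the third panel has 0 stars.

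Gabarapl2, the GABARAP family member also known from transport within the Golgi, was higher in GF mice in all 6 types of both regions. In Hip excitatory neurons GF mice had 86.8, 74.7 and 67.3 CPM, SPF mice 15.3, 18.4 and 24.2, and CGF mice 30.5, 15.6 and 32.1. In PFC excitatory neurons the values were 76.5, 43.9 and 53.8 in GF, 19.2, 21.2 and 19.4 in SPF, and 20.5, 23.9 and 19.6 in CGF mice. The lowest GF mouse thus lay well above the highest mouse of the other groups in both regions. The rise was 1.98 ± 0.26 on the log2 scale (SE), or 3.96-fold, in Hip (adjusted p = 2.87e-04) and 1.54 ± 0.18, or 2.91-fold, in PFC (adjusted p = 1.13e-05). Interneurons had 79.3, 81.9 and 77.5 CPM in GF mice of Hip, whereas SPF mice ranged from 17.03 to 29.1 and CGF mice from 15.6 to 36.3.

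The glia repeated this pattern for Gabarapl2. Microglia of Hip had 209, 254 and 224 CPM in GF, 37.2, 67.9 and 117 in SPF and 62.3, 36.6 and 63.7 in CGF mice, a rise of 1.64 ± 0.26 over SPF (adjusted p = 7.18e-05). Microglia of PFC had 159, 146 and 165 in GF, 11.7, 20.3 and 21.1 in SPF and 40.8, 19.2 and 32.6 in CGF mice, a rise of 3.06 ± 0.32 or 8.33-fold (adjusted p = 4.18e-09). Across the 12 sums the rise ran from 1.53 in Hip oligodendrocytes to 3.06 in PFC microglia, and in 0 of the 12 did GF mice overlap with SPF or CGF mice. Among all genes tested, the rise of Gabarapl2 exceeded that of 97.8% (oligodendrocytes) to 99.7% (OPC) in Hip, and that of 89.8% (excitatory neurons), 92.8% (interneurons) and 96.7 to 98.5% (glia) in PFC. All 12 calls held under every alternative tried, with the size changing most in PFC microglia, to 1.98 when nuclei were gated by marker UMIs instead of clusters. PFC microglia of GF mice held 8587 to 10510 CPM of their own 11 marker genes, against 3121 to 3553 in SPF mice, with 10 of the 11 higher in all GF mice. Of other lists, the 10 excitatory neuron markers summed to 2580 to 2838 CPM in GF against 3071 to 3874 in SPF mice (3 genes higher and 5 lower in all GF mice), but the 10 oligodendrocyte markers to 378 to 430.4 against 173 to 310.2 (5 higher, 0 lower), the 10 astrocyte markers to 2502 to 3322 against 2194 to 2234 (2 higher, 4 lower), the 14 vascular markers to 118 to 173 against 55.7 to 98.1 (6 higher, 1 lower) and the 5 red blood cell markers to 247 to 459 against 0 to 34.5 (4 higher, 0 lower). Microglia of Hip also differed in their own markers, with 8671 to 8994 CPM of their own markers in GF against 5146 to 6497 in SPF mice (9 higher, 0 lower), 2356 to 2503 CPM of the 10 astrocyte markers against 3317 to 4363 (0 higher, 7 lower) and 169 to 382 CPM of the red blood cell markers against 40.0 to 91.6 (3 higher, 0 lower). The part of these marker differences in the results was not tested.

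Gabarap, the founding member of its branch, first known as a binding partner of GABA-A receptors, was higher in GF mice in 6 of 6 types of Hip and 5 of 6 of PFC. In Hip astrocytes GF mice had 127, 140.2 and 158 CPM, SPF mice 49.8, 44.4 and 69.6 and CGF mice 36.0, 54.4 and 72.0. In Hip excitatory neurons the values were 42.7, 56.4 and 53.1 in GF, 17.9, 17.2 and 28.6 in SPF, and 12.9, 17.3 and 25.4 in CGF mice. SPF mouse 32 and CGF mouse 19 were the highest of their groups in both, and still below every GF mouse. Their Hip libraries also held the most choroid plexus nuclei of their groups (282 against 48 and 82, and 153 against 32 and 0). GF mouse 5, the lowest GF mouse in both, held 0 such nuclei, against 271 and 83 in GF mice 6 and 7. In astrocytes the remaining mice of each group did not keep this order. The part of this in the levels was not tested. The rise over SPF was 1.37 ± 0.21 in astrocytes (adjusted p = 3.24e-04) and 1.26 ± 0.26 in excitatory neurons (adjusted p = 0.003), and it lay between 0.98 and 1.37 over the 6 types of Hip. In OPC the call was lost without SPF mouse 30 (0.75, adjusted p = 0.0617), and with length and GC trends removed both OPC (0.26) and microglia (0.54) lost it. Own markers also differed in these glia, with 16790 to 17370 CPM in GF against 11930 to 14570 in SPF oligodendrocytes (8 of 10 genes higher in all GF mice and 0 lower). In OPC they summed to 7076 to 8637 against 9089 to 10310, although 3 of the 7 genes were higher in all GF mice and 1 lower. Hip oligodendrocytes held 372 to 460.0 CPM of astrocyte markers against 789 to 978 (0 of 10 higher, 6 lower). The part of this in the rises was not tested.

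In PFC the rises of the same gene were called in all 4 glial types and in interneurons. Microglia had 174, 139 and 154 CPM of Gabarap in GF and 52.8, 30.4 and 33.2 in SPF mice, a rise of 2.05 ± 0.28, which was 0.93 with the marker gate. Oligodendrocytes rose by 1.30 ± 0.22, OPC by 1.36 ± 0.30 and astrocytes by 1.32 ± 0.22. These glial sums also differed in their own markers, which stood at 15760 to 18350 CPM in GF against 8859 to 9133 in SPF oligodendrocytes (7 of 10 genes higher in all GF mice, 0 lower), 6394 to 7878 against 4912 to 5911 in OPC (3 of 7 higher, 2 lower) and 13690 to 14480 against 10040 to 11210 in astrocytes (8 of 10 higher, 2 lower). In the same order, microglial markers stood at 119 to 153 against 78.9 to 94.0, 123 to 139 against 68.2 to 78.5 and 127 to 167 against 71.3 to 91.4. Red blood cell markers stood at 188 to 389 against 3.29 to 32.7, 116 to 193.5 against 12.1 to 18.3 and 139 to 256 against 13.5 to 59.2. Astrocyte markers were lower in GF oligodendrocytes (534 to 586 against 828 to 899). The 10 excitatory neuron markers stood at 1947 to 2495 against 2622 to 3330 in oligodendrocytes (1 higher in all GF mice, 5 lower). They stood at 1439 to 1903 against 1794 to 2824 in OPC (1 higher, 5 lower) and at 1506 to 1810 against 1932 to 2700 in astrocytes (2 higher, 5 lower). The part of this in the rises was not tested. Excitatory neurons had 39.3, 30.2 and 40.4 CPM in GF and 34.7, 38.0 and 32.1 in SPF mice, which overlapped fully (0.07 ± 0.13, adjusted p = 0.659). With length and GC trends removed, the same test was called lower in GF mice (-0.28, adjusted p = 0.0435). Interneurons rose by 0.44 ± 0.14 (adjusted p = 0.0152). That call was lost without GF mouse 5 (0.36) or SPF mouse 32 (0.34), after thinning (0.35, adjusted p = 0.0795) and with length and GC trends removed (0.14).

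**Figure D2:**
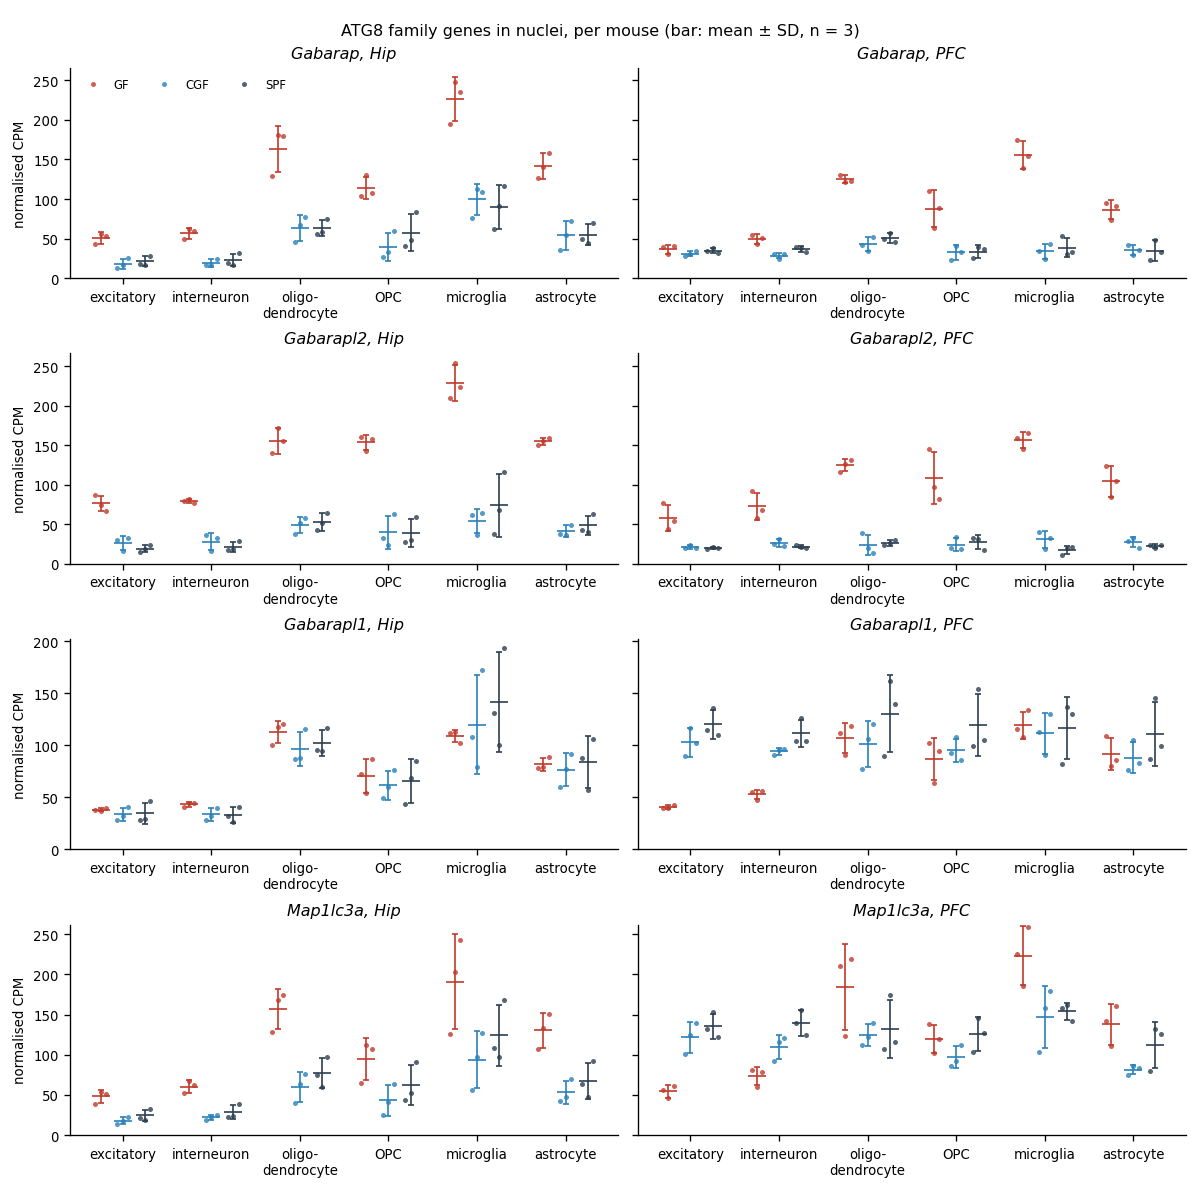
Normalised CPM (y axis) of the 4 detected ATG8 genes in each of the 6 cell types (x axis) of Hip and PFC; points are mice, coloured by group, and bars the mean ± SD. GF points lie above all SPF and CGF points in each cell type of Gabarapl2, while Gabarapl1 and Map1lc3a of PFC neurons show GF points below the others.

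Map1lc3a, the LC3A gene, moved in opposite directions in the neurons of the 2 regions. In Hip excitatory neurons GF mice had 38.9, 53.9 and 51.1 CPM, SPF mice 21.0, 19.2 and 32.8 and CGF mice 13.7, 17.5 and 22.5. In PFC excitatory neurons GF mice had 56.3, 45.7 and 60.7, SPF mice 132, 153 and 122.5 and CGF mice 100.5, 125 and 139. GF mice were thus the highest group in Hip and the lowest in PFC, without overlap in either. The difference was 0.98 ± 0.23 in Hip (adjusted p = 0.00631) and -1.32 ± 0.14 in PFC (adjusted p = 6.00e-06). Interneurons gave 1.09 ± 0.18 in Hip and -0.93 ± 0.14 in PFC, also without overlap. With length and GC trends removed, the Hip rises were no longer called (0.31, adjusted p = 0.14, and 0.24, adjusted p = 0.147), whereas the PFC falls were. In Hip the rises in astrocytes (0.94 ± 0.22) and oligodendrocytes (1.005 ± 0.20) also passed the test, and OPC (0.60 ± 0.27) and microglia (0.62 ± 0.25) did not. OPC passed without SPF mouse 32 (0.97), and microglia without GF mouse 5 (0.88), SPF mouse 32 (0.90), CGF mouse 17 (0.63) or CGF mouse 19 (0.65), and also with likely doublets left out (0.68), the marker gate (0.65), no filter (0.59) and thinning (0.72). In PFC, microglia were higher in GF mice by 0.56 ± 0.21 (adjusted p = 0.0254), but the value was -0.40 with the marker gate and the call was lost with DESeq2 (0.55), without likely doublets (0.56), after thinning (0.45) and without GF mouse 7 (0.46), SPF mouse 30 (0.56), SPF mouse 31 (0.56) or SPF mouse 32 (0.48). PFC oligodendrocytes (0.48 ± 0.21, adjusted p = 0.0537) passed without GF mouse 6 (0.69), SPF mouse 31 (0.73) or CGF mouse 18 (0.49), and with RLE factors (0.52), likely doublets left out (0.54) or no filter (0.51). PFC astrocytes gave 0.29 and OPC -0.07, and astrocytes passed with likely doublets left out (0.47, adjusted p = 0.0343).

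Gabarapl1, the GABARAP family gene also known as GEC1, was lower in GF mice in PFC neurons and passed no test in Hip. PFC excitatory neurons had 39.9, 40.0 and 43.0 CPM in GF, 115, 136 and 109.9 in SPF and 89.4, 117 and 102 in CGF mice. In Hip excitatory neurons the values were 37.9, 36.8 and 39.8 in GF, 28.0, 29.4 and 46.5 in SPF, and 28.2, 31.8 and 40.9 in CGF mice. The GF values were alike in the 2 regions, and the SPF and CGF values were the ones that differed. The fall in PFC was -1.55 ± 0.11 in excitatory neurons (adjusted p = 3.13e-07) and -1.08 ± 0.11 in interneurons (adjusted p = 4.45e-06), and the 4 glial types lay between -0.44 and 0.01 without a call. With the marker gate, however, 3 of these glial types were called lower in GF mice, namely oligodendrocytes (-0.76, adjusted p = 7.33e-04), OPC (-0.65, adjusted p = 0.0418) and astrocytes (-0.46, adjusted p = 0.0324). In Hip the differences lay between -0.38 and 0.38, and without SPF mouse 32 the excitatory neurons (0.39, adjusted p = 0.0412) and interneurons (0.55, adjusted p = 0.0126) passed the test as higher in GF mice, the latter also with no filter (0.37, adjusted p = 0.0466). Hip microglia were called lower once length and GC trends of each library were removed (-0.87, adjusted p = 0.013).

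The regions were also compared directly in neurons, where CPM without library factors put both on 1 scale. Map1lc3a of excitatory neurons stood at 23.7 ± 7.60 CPM in Hip and 139.6 ± 18.9 in PFC of SPF mice, at 16.9 ± 4.29 and 127 ± 22.6 in CGF mice, and at 52.2 ± 9.43 and 50.4 ± 7.56 in GF mice (SD, n = 3 each). Gabarapl1 of excitatory neurons stood at 33.8 ± 10.7 and 124 ± 16.6 in SPF, 31.9 ± 6.43 and 107 ± 11.1 in CGF and 41.5 ± 1.62 and 38.1 ± 1.71 in GF mice. In SPF and CGF mice the PFC level was thus several times the Hip level, and in GF mice the regions had nearly equal levels. Interneurons were alike, since Map1lc3a had 22.0, 23.5 and 37.7 CPM in Hip and 145, 159 and 121 in PFC of SPF mice, but 55.1, 75.3 and 65.1 in Hip and 78.8, 57.8 and 74.6 in PFC of GF mice. The difference between regions of the GF against SPF change was 2.24 ± 0.28 for Map1lc3a (adjusted p = 3.84e-06), 1.64 ± 0.23 for Gabarapl1 (adjusted p = 1.24e-05) and 1.13 ± 0.30 for Gabarap (adjusted p = 0.00388) in excitatory neurons. In interneurons it was 2.02 ± 0.24, 1.46 ± 0.20 and 0.88 ± 0.26, the last with an adjusted p of 0.0103 that was lost without GF mouse 6 (0.71), SPF mouse 30 (0.71) or SPF mouse 31 (0.71). Gabarapl2 did not share this pattern in neurons (0.38 ± 0.32 and 0.15 ± 0.34, adjusted p = 0.34 and 0.752). Of the 41 member tests of this difference, 6 were higher in Hip and 1 lower, where 16.5% of all gene tests were higher and 18.7% lower, so these counts do not exceed the background. Without SPF mouse 32 Map1lc3a of astrocytes also passed (0.92), and without GF mouse 7 Optn of interneurons (-0.60). With the mouse as a replicate block across regions, Map1lc3a of astrocytes passed as well.

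The share of mitochondrial UMIs moved with Map1lc3a and Gabarapl1 over the same neuron sums. For excitatory neurons of PFC this share ran from 0.255 to 0.459% (GF), from 1.34 to 2.64% (SPF) and from 1.005 to 1.97% (CGF). For those of Hip it ran from 0.413 to 0.728% (GF), from 0.0896 to 0.351% (SPF) and from 0.0478 to 0.144% (CGF). Between the groups, the highest levels of both genes were therefore in the sums with the highest mitochondrial share, whereas Gabarapl2 was highest in GF mice of both regions, at shares of 0.255 to 0.728%. SPF mouse 32, which had the highest Hip level of Map1lc3a, Gabarapl1 and Gabarap among SPF excitatory neurons, also had the highest mitochondrial share among them (0.351%). In PFC the same mouse again had the highest share of the SPF mice (2.64%, against 1.34 and 1.67%), but the lowest levels, with 120.5 CPM of Map1lc3a against 140.0 and 158.3, Gabarapl1 below the 122.0 and 141.0 of the other mice, and 31.6 of Gabarap against 36.9 and 39.3. The part of RNA quality or of RNA from outside the nucleus in these results was not tested.

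**Figure D3:**
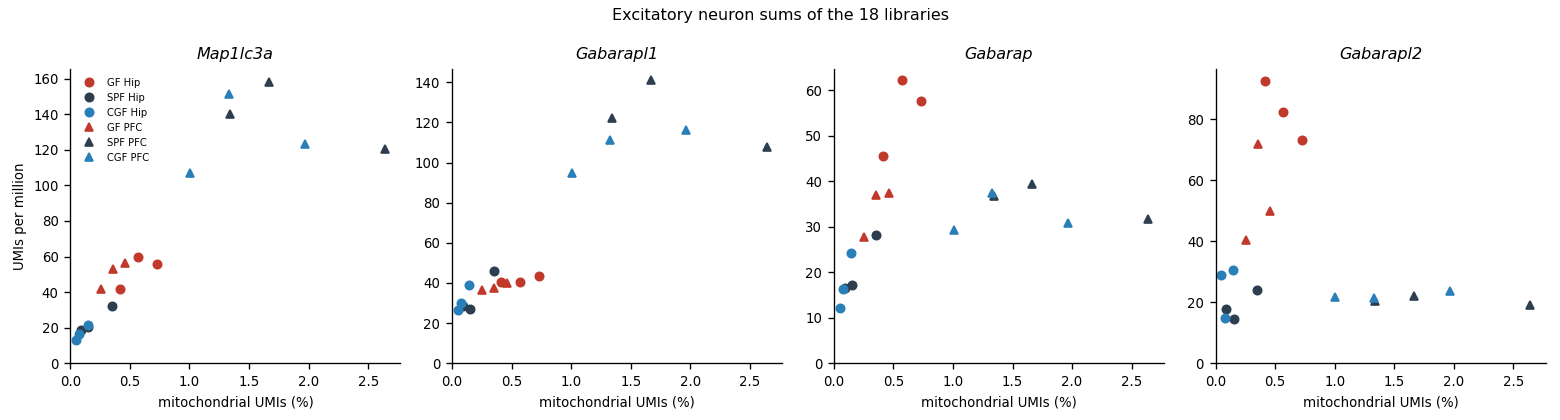
CPM without library factors (y axis) of the 4 detected ATG8 genes against the percent of mitochondrial UMIs (x axis) in the excitatory neuron sums of the 18 libraries, with colour for group and symbol for region. Map1lc3a and Gabarapl1 lie highest in SPF and CGF libraries of PFC at shares of 1.005% and above, and Gabarapl2 lies highest in GF libraries at shares up to 0.728%.

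In microglia Gabarapl2 was the member whose change differed between regions, by -1.37 ± 0.49 (adjusted p = 0.0444). The size was alike with DESeq2 (-1.37 ± 0.57, adjusted p = 0.0882) and after thinning to the lowest mean UMIs per nucleus of any library (-1.41 ± 0.59, adjusted p = 0.0992), but with the larger SE of both it was not called. The call was also lost without CGF mouse 17 or 19, GF mouse 5, 6 or 7, or SPF mouse 31 or 32 (-1.06 to -1.48). Within SPF mice, Gabarapl2 was higher in Hip than in PFC in microglia (1.82 ± 0.42), astrocytes (1.11 ± 0.24) and oligodendrocytes (1.02 ± 0.28), and did not differ past the threshold in excitatory neurons (0.10 ± 0.24) or interneurons (0.15 ± 0.27).

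Hip against PFC in SPF mice otherwise set the neuronal ATG8 genes apart. Map1lc3a was lower in Hip in excitatory neurons (-2.33 ± 0.21, adjusted p = 2.18e-08), interneurons (-2.14 ± 0.18), OPC (-0.94 ± 0.27), astrocytes (-0.76 ± 0.23) and oligodendrocytes (-0.73 ± 0.24). Gabarapl1 was lower in Hip in excitatory neurons (-1.65 ± 0.16), interneurons (-1.59 ± 0.14) and OPC (-0.78 ± 0.25). Of these, the Map1lc3a calls in OPC (-0.72), astrocytes (-0.44) and oligodendrocytes (-0.33) were lost without SPF mouse 31, and the Gabarapl1 call in OPC without SPF mouse 30 (-0.61) or 31 (-0.58). Gabarapl1 of astrocytes passed as lower without SPF mouse 32 (-0.72). Gabarap was lower in Hip neurons (-0.57 ± 0.21 and -0.52 ± 0.20) and higher in Hip microglia (1.11 ± 0.31) and astrocytes (0.64 ± 0.26), and the 4 Gabarap calls were each lost without 1 or more SPF mice, for example -0.37 in excitatory neurons without SPF mouse 31 and 0.35 in astrocytes without SPF mouse 32, and that of astrocytes also without CGF mouse 18, GF mouse 5 or GF mouse 7 (0.64 each). Optn was higher in Hip interneurons (0.70 ± 0.16), Sqstm1 lower in Hip excitatory neurons (-0.34 ± 0.10, lost without SPF mouse 31, -0.28) and Becn1 higher in Hip oligodendrocytes (0.69 ± 0.25, lost without SPF mouse 31, 0.75, or 32, 0.55). In all, 7 of 41 tests were higher in Hip and 11 lower, where 26.1% and 25.5% of all gene tests were, so the members changed between regions no more often than other genes. Without SPF mouse 32 the higher count was 4, and without SPF mouse 31 the lower count was 4. The number of UMIs per library differs between the regions of SPF mice as well and cannot be told apart from region here. Thinning ended 3 of the 18 calls, those of Becn1 in oligodendrocytes (0.69, adjusted p = 0.0892), Gabarapl1 in OPC (-0.73, adjusted p = 0.0625) and Gabarap in interneurons (-0.33, adjusted p = 0.149), and DESeq2 ended that of Becn1 (0.70, adjusted p = 0.0585).

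Sqstm1 encodes p62, a receptor that carries ubiquitinated proteins to autophagosomes and is itself consumed there. Excitatory neurons of Hip had 61.1, 66.6 and 61.7 CPM in GF, 42.6, 42.6 and 43.5 in SPF and 43.9, 43.2 and 39.0 in CGF mice. The SPF and CGF mice lay between 39.0 and 43.9 CPM and the GF mice above all of them, a rise of 0.56 ± 0.06 or 1.47-fold over SPF (adjusted p = 1.58e-04). Hip interneurons rose by 0.58 ± 0.10 (adjusted p = 6.29e-04), and Hip oligodendrocytes by 0.41 ± 0.14 (adjusted p = 0.0272), which was lost without GF mouse 6 (0.37) or SPF mouse 30 (0.31). It was also lost with DESeq2 (0.40), no filter (0.35) and length and GC trends removed (0.12). OPC (0.56 ± 0.24) passed without SPF mouse 32 (0.75), and Hip astrocytes with the marker gate (0.47, adjusted p = 0.0105). In PFC 0 of 6 types passed the test at these settings, with 2 of 6 at an unadjusted p under 0.05 and 0 with DESeq2. PFC excitatory neurons had 80.8, 68.7 and 70.9 CPM in GF and 58.8, 64.2 and 57.5 in SPF mice, which did not overlap (0.29 ± 0.13, adjusted p = 0.0637), and interneurons gave 0.32 ± 0.13 (adjusted p = 0.0524). The call was gained in excitatory neurons without CGF mouse 18 or 19 (0.28 and 0.29) and in interneurons without CGF mouse 18 or 19 or GF mouse 6 (0.32, 0.32 and 0.38). Other alternatives gave it too, in excitatory neurons with no filter (0.31) or only the compared groups (0.27), and in interneurons with these (0.34 and 0.31), RLE factors (0.33), likely doublets left out (0.35), the marker gate (0.41) and thinning (0.39). PFC microglia passed with the marker gate (0.87, adjusted p = 0.0311).

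Optn, the receptor known for damaged mitochondria, was the member with the opposite direction in Hip. Hip interneurons, its highest type of those compared, had 39.9, 28.9 and 31.1 CPM in GF, 57.0, 58.2 and 51.5 in SPF and 57.4, 56.4 and 51.2 in CGF mice. All GF mice lay below all others, and the fall was -0.74 ± 0.12 or 1.67-fold (adjusted p = 4.61e-04). It held under each alternative tried. These sums held 4114 to 7000 CPM of the 8 interneuron markers in GF against 6140 to 7771 in SPF mice (2 higher in all GF mice, 2 lower). Cajal-Retzius markers stood at 56.8 to 101.9 against 30.95 to 53.9 (0 of 5 higher in all GF mice, 0 lower). Microglial markers stood at 81.2 to 86.6 against 65.1 to 68.6 (6 of 11 higher, 3 lower) and red blood cell markers at 53.3 to 97.3 against 15.8 to 23.7 (4 of 5 higher, 0 lower). The part of this in the fall was not tested. Smaller falls passed the test in Hip astrocytes (-0.69 ± 0.23, adjusted p = 0.0336), Hip excitatory neurons (-0.54 ± 0.18, adjusted p = 0.0326) and PFC excitatory neurons (-0.30 ± 0.12, adjusted p = 0.0423). These 3 were lost without 1 mouse, namely GF mouse 6 (-0.58), GF mouse 7 (-0.51) or SPF mouse 30 (-0.58) in astrocytes, GF mouse 5 (-0.44), GF mouse 6 (-0.56) or SPF mouse 30 (-0.40) in Hip excitatory neurons, and GF mouse 6 (-0.25), GF mouse 7 (-0.27), SPF mouse 30 (-0.28) or SPF mouse 32 (-0.30) in PFC excitatory neurons. The astrocyte call was also lost with DESeq2 (-0.70) and thinning (-0.49), and that of PFC excitatory neurons with no filter (-0.28) and thinning (-0.29). All 3 were lost with length and GC trends removed (-0.54 in Hip astrocytes, -0.35 in Hip and -0.24 in PFC excitatory neurons). PFC interneurons had 35.6, 36.6 and 23.5 CPM in GF and 37.4, 41.0 and 36.5 in SPF mice, which overlapped (-0.27 ± 0.18, adjusted p = 0.234).

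**Figure D4:**
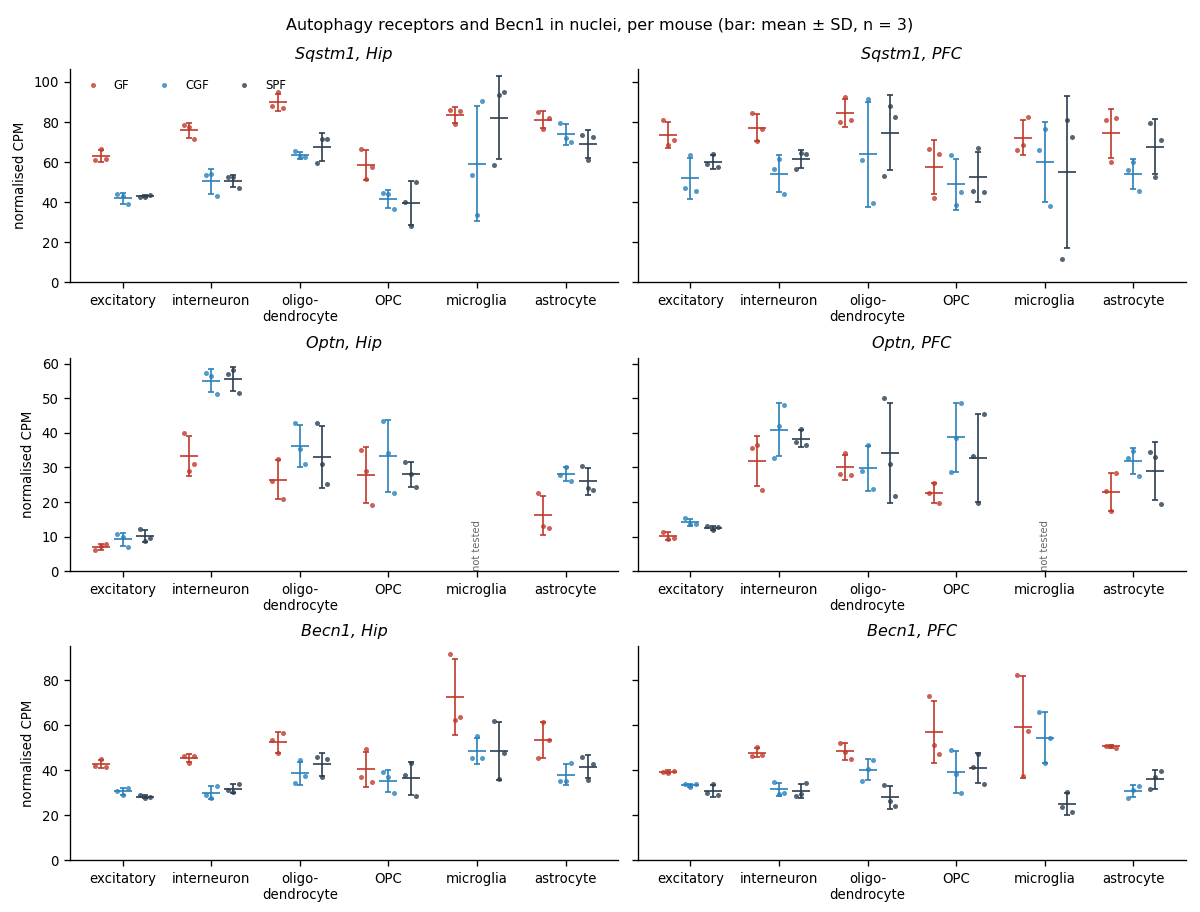
Normalised CPM (y axis) of Sqstm1, Optn and Becn1 in the 6 cell types (x axis) of Hip and PFC, with a point for each mouse coloured by group and bars for the mean ± SD. In Hip neurons GF points of Sqstm1 and Becn1 lie above, and those of Optn in interneurons below, all SPF and CGF points; Optn was not tested in microglia.

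Becn1 was higher in GF neurons of both regions. Those of Hip had 42.0, 44.7 and 41.4 CPM in excitatory neurons of GF, 29.0, 27.5 and 28.2 in SPF and 30.6, 29.0 and 31.9 in CGF mice, and in PFC excitatory neurons 39.4, 38.9 and 39.8, 29.8, 33.9 and 28.9, and 33.6, 32.5 and 33.6 in the same order. GF mice lay above all other mice in both, but without library factors the PFC values of GF (35.65 to 37.0) and CGF mice (32.2 to 36.6) overlapped. The rises were 0.60 ± 0.06 or 1.51-fold (adjusted p = 1.17e-04) and 0.35 ± 0.09 or 1.27-fold (adjusted p = 0.00455), and the second was lost with length and GC trends removed (0.09, adjusted p = 0.376). Interneurons rose by 0.51 ± 0.10 in Hip and 0.64 ± 0.12 in PFC, and both calls held under each alternative tried. The glial rises of PFC were less stable. Astrocytes (0.47 ± 0.19) lost the call without any 1 of the GF or SPF mice (0.39 to 0.57), oligodendrocytes (0.82 ± 0.29) without GF mouse 5 (0.76), SPF mouse 31 (0.78) or SPF mouse 32 (0.74), and microglia (1.28 ± 0.38) without SPF mouse 32 (1.13). The oligodendrocyte call was also lost with DESeq2 (0.85), thinning (0.80) and the marker gate (0.44), and the astrocyte call with DESeq2, thinning, no filter, likely doublets left out or only the compared groups (0.38 to 0.55). With length and GC trends removed, PFC astrocytes (0.08), oligodendrocytes (0.34) and microglia (0.71, adjusted p = 0.134) all lost the call. In PFC microglia CGF mice had 65.9, 43.1 and 54.3 CPM, nearer to GF (82.4, 37.5 and 57.5) than to SPF mice (23.4, 30.4 and 21.1), but CGF and SPF mice did not differ past the threshold (1.18 ± 0.43, adjusted p = 0.48).

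CGF mice were compared with GF and with SPF mice to show the levels after colonization. The comparison of GF with CGF mice uses the same GF mice as that with SPF mice, so the 2 are not independent. Against CGF mice, 24 of 41 member tests were higher in GF mice in Hip and 2 lower (all genes, 20.2% and 17%), and 20 higher and 5 lower in PFC (26.7% and 26.4%). In Hip, Gabarapl2 (1.51 to 2.06), Gabarap (1.18 to 1.57) and Map1lc3a (1.02 to 1.47) were higher in all 6 types. In PFC, Gabarapl2 was higher in 6 of 6 types (1.44 to 2.43), and Map1lc3a and Gabarapl1 were lower in excitatory neurons (-1.16 ± 0.14 and -1.33 ± 0.11) and interneurons (-0.58 ± 0.14 and -0.83 ± 0.11). The 2 falls in Hip were those of Optn in astrocytes (-0.82 ± 0.23) and interneurons (-0.73 ± 0.12), and the count was 1 without GF mouse 6 or GF mouse 7. Between CGF and SPF mice, edgeR called 0 of 41 member tests in either region, where it called 0.312% of all gene tests in Hip and 0.223% in PFC. At an unadjusted p under 0.05 there were 0 in Hip and 5 in PFC, and DESeq2 called 0 in both. The 5 in PFC were Map1lc3a (-0.35 ± 0.14), Gabarapl1 (-0.25 ± 0.11) and Gabarap (-0.36 ± 0.15) in interneurons, Map1lc3a in astrocytes (-0.49 ± 0.19) and Becn1 in microglia. All CGF mice lay apart from all SPF mice in 0 of 41 tests in Hip and 6 in PFC, where 16.0% and 13.4% of all gene tests did.

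Gene length moved with the difference between GF and SPF mice over all genes, and the members differ in length. In Hip, genes with a body under 5 kb had a median difference of 0.72 to 0.996 over the 6 types, with 51.6 to 61.0% of them higher in GF mice, and genes of 50 kb and over had -0.31 to -0.25. In PFC neurons the short genes had medians of 0.04 and 0.05, and in PFC glia 0.27 to 0.87. Map1lc3a has a body of 1.78 kb and Gabarap of 3.81 kb, followed by Gabarapl1 (9.19 kb), Sqstm1 (11.5 kb), Gabarapl2 (12.9 kb), Becn1 (16.3 kb) and Optn (43.4 kb). When the trend of each library on length and GC content was removed, the 4 Hip rises of Map1lc3a were no longer called (0.15 to 0.31), and Gabarap kept its call in 4 of 6 Hip types, with 0.26 in OPC and 0.54 in microglia (adjusted p = 0.503 and 0.0581). Gabarap of PFC excitatory neurons turned to -0.28 (adjusted p = 0.0435) and that of PFC interneurons was 0.14. The rise of Gabarapl2 stayed between 1.22 and 2.39 in the 12 sums, and the falls of Map1lc3a and Gabarapl1 in PFC neurons stayed called. Other calls were gained, as lower in GF mice for Gabarapl1 in Hip microglia (-0.87), PFC astrocytes (-0.45) and PFC oligodendrocytes (-0.59), and as higher for Map1lc3a in PFC oligodendrocytes (0.61) and Sqstm1 in PFC excitatory neurons (0.42) and interneurons (0.46).

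**Figure D5:**
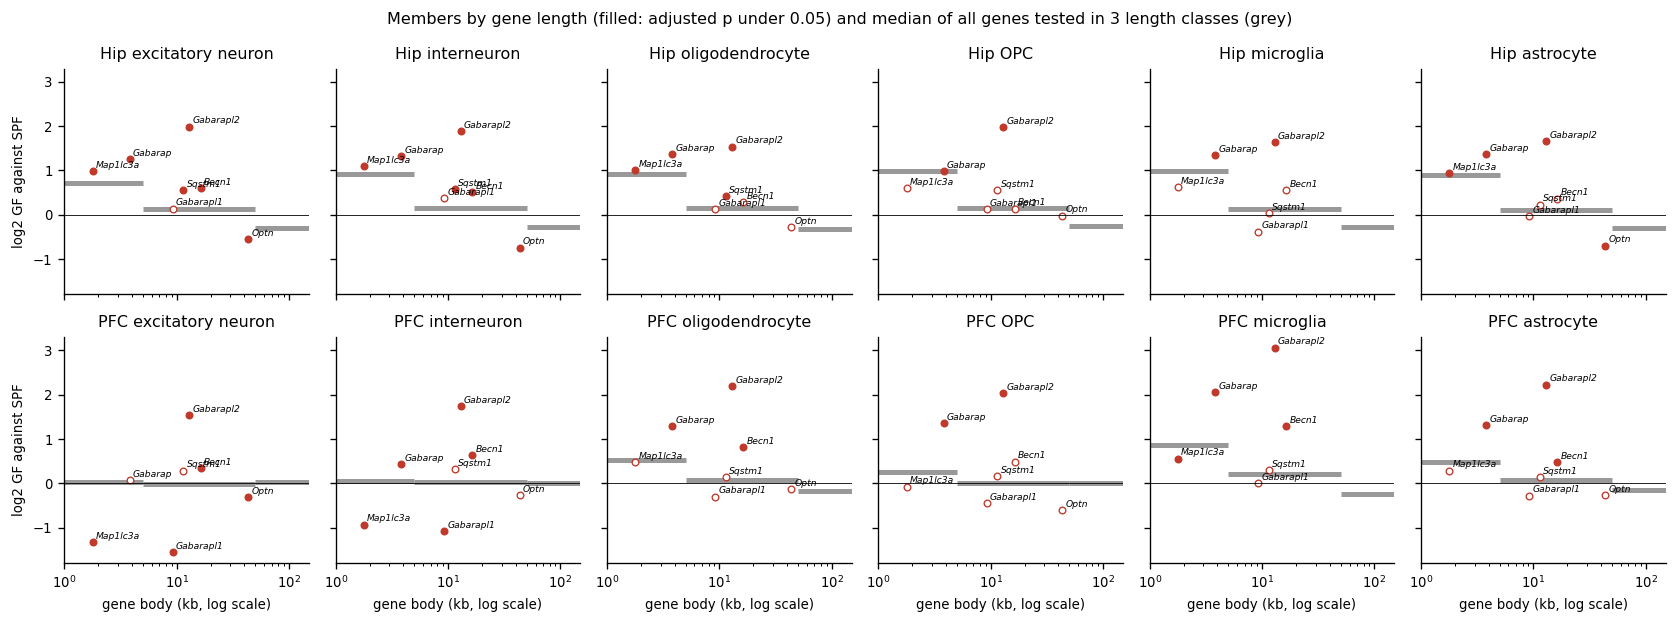
Log2 difference of GF against SPF mice (y axis) of the 7 members against gene body length in kb (x axis, log scale), in the cell types named above each panel, filled where the adjusted p was under 0.05; grey lines give the median of all genes tested in the classes under 5 kb, 5 to 50 kb and 50 kb and over. In Hip the grey line falls from 0.72 to -0.30 in excitatory neurons, and Gabarapl2 lies well above it in each panel.

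RNA of other cells also differed between groups. The 5 red blood cell markers lay in Hip excitatory neurons at a summed 53.4 to 85.8 CPM (GF), 14.7 to 19.1 (SPF) and 20.3 to 34.7 (CGF), and in those of PFC at 41.8 to 80.6, 8.36 to 14.3 and 20.9 to 47.0, with 0 of the 5 at 0 and 4 and 3 of the 5 higher in all GF than SPF mice. Excitatory neurons held 5125 to 5323 CPM of their own 10 markers in GF and 4943 to 5394 in SPF mice of Hip, and 77.3 to 89.0 CPM of the 11 microglial markers in GF against 56.6 to 64.3 in SPF mice, where 4 of the 11 were higher in all GF mice and 4 lower. In PFC, where Map1lc3a and Gabarapl1 were lower in GF neurons, excitatory neurons held 4073 to 4781 CPM of their own markers in GF and 4830 to 5314 in SPF mice (2 of 10 higher in all GF mice, 6 lower). The 10 astrocyte markers stood there at 584 to 601 CPM in GF against 934 to 1023 in SPF mice, with 7 of the 10 lower in all GF mice, and in PFC interneurons at 375 to 488 against 677 to 789, with 5 of the 10 lower. PFC interneurons also held 2234 to 2581 CPM of the 10 excitatory neuron markers in GF against 2826 to 3119 in SPF mice (0 higher in all GF mice, 6 lower). By the marker gate, 2063 nuclei of the PFC interneuron clusters were excitatory neurons and 4870 were interneurons. The part of these in the member differences was not tested.

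The wider autophagy machinery was read from a list of 59 genes, of which 58 were in the tables (initiation kinases, the lipid kinase complex, lipid transfer, ATG8 conjugation, other receptors, and fusion with the lysosome). Over the 6 types of Hip, 43 of 331 tests of the list were higher in GF than in SPF mice and 61 lower, and in PFC 66 of 315 were higher and 60 lower. Over all genes 19.6% and 16.4% of tests were in Hip and 26.8% and 26.6% in PFC, so the list had fewer higher calls than this background in both regions, and fewer lower calls in PFC. Excitatory neurons of Hip had 9 of 58 higher and 25 lower (25.4% and 21.7% of all genes), and microglia of Hip had 4 of 52 and 1 (14% and 12.0%). Excitatory neurons of PFC had 18 of 58 and 19 (32% and 31.1%), and microglia of PFC 12 of 48 and 4 (25.3% and 25.9%). The list's median ran from -0.17 in Hip excitatory neurons (0.04 over all genes) to 0.15 in PFC microglia (0.07 over all genes).
Among called genes without overlap of GF and SPF mice, the largest rises in excitatory neurons of Hip were in Atg101 (1.14 ± 0.16), a subunit of the ULK1 kinase complex, Atg4d (1.01 ± 0.07), a protease that trims ATG8 proteins, and Lamp1 (0.76 ± 0.13), a lysosomal membrane protein. The largest falls were in Pik3r4 (-0.71 ± 0.08) and Pik3c3 (-0.66 ± 0.08), the partner subunits of beclin 1 in the lipid kinase complex, and Epg5 (-0.66 ± 0.06), a tether for fusion with lysosomes. The 3 that rose have gene bodies of 6.67 to 16.2 kb and the 3 that fell of 44.7 to 96.55 kb, and in these sums 47.5% of all genes of 50 kb and over were lower in GF mice (median -0.30). The list was not recomputed with the trend on length removed. In PFC excitatory neurons Atg4d (1.55 ± 0.16), Atg3 (1.35 ± 0.09), the E2-like enzyme that attaches ATG8 proteins to lipid, and Vamp8 (0.90 ± 0.32) rose, and Ccpg1 (-4.40 ± 0.37), Tollip (-1.72 ± 0.15) and the initiation kinase Ulk1 (-1.36 ± 0.12) fell. Vamp8 stood there at only 0.84 CPM in GF and 0.46 in SPF mice, and it was tested in 4 of the 12 sums. In Hip microglia Atg101 (1.45 ± 0.39), Vamp8 (1.30 ± 0.35) and Atg3 (0.61 ± 0.21) rose and Pik3c3 (-1.04 ± 0.34) fell. In PFC microglia Atg16l2 (2.66 ± 0.34), Atg101 (2.63 ± 0.60) and Atg3 (2.06 ± 0.38) rose, and Atg2a (-1.15 ± 0.44), Ulk1 (-0.98 ± 0.37) and Wipi2 (-0.80 ± 0.32) fell.

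Over the sums of 18 libraries by 6 types, the member pairs most alike were Gabarap with Gabarapl2 (Pearson r of log2 CPM 0.859) and Gabarapl1 with Map1lc3a (0.852), while Gabarapl1 with Gabarapl2 had 0.143. Among 5994 genes tested in all 12 sums, those most like Gabarap were Ubb (0.961), Dynll1 (0.952) and Cfl1 (0.944), and those most like Gabarapl2 were Vps29 (0.920), H2afz (0.919) and Rpl9-ps6 (0.916). Gabarapl1 was most like Vamp2 (0.918), Calm3 (0.915) and Ppp2r1a (0.912), and Map1lc3a most like Tmsb10 (0.947), Uchl1 (0.944) and Vamp2 (0.943). Lower values were found for Sqstm1 (Rnf7, 0.679, Sra1, 0.658, and Zfp428, 0.642), Optn (Samd4 and Npas3, 0.744 each, then Erbb4, 0.729) and Becn1 (Commd3, 0.777, Cox6a1, 0.772, and Tubb4b, 0.765). The partners of Gabarap have gene bodies of 2.04 to 4.75 kb and those of Optn of 223 to 1076 kb. The sums share libraries, depth and cell types, and the values describe likeness only.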

How the data were processed

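Nuclei of 18 libraries were read from the deposited UMI count matrices, 1 for each mouse and region, and no sample was left out. Per the labels and the study's methods, the authors converted base calls with CASAVA 1.8 and made the counts with Cell Ranger (3.1.0 in the matrix header) on mm10. Whether intronic reads were counted is not given in the sources used here. The deposited values were whole, unnormalised counts, and 0 columns of per-sample values were left unused. GENCODE vM21 (GRCm38) matched 30843 of 30905 genes (99.8%).

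Nuclei with at least 200 genes and at most 10% mitochondrial UMIs were kept. They were scaled to 10000 UMIs and clustered by region with 2000 variable genes, 10 principal components, 20 neighbours and Leiden resolution 1. A cluster was named from at least 3 raised markers of 1 list. Clusters made mostly of likely doublets, led by mitochondrial genes at low UMIs, or without a clear list were left unnamed and not summed. Groups differed in these, since Hip cluster 11, led by Ttr and mitochondrial genes, held 7.08% of GF, 1.68% of SPF and 0.523% of CGF nuclei. PFC cluster 24, mostly likely doublets, held 1.46% of GF and 0.01% of SPF nuclei. Doublets in named clusters were left in, and nuclei with the highest doublet scores (50 neighbours, 0.8% per 1000 nuclei) were left out in an alternative. Counts were summed per mouse and type and tested with edgeR's quasi-likelihood test (filterByExpr, TMM, 3 groups in 1 fit, Benjamini-Hochberg over all genes of a type, threshold 0.05). Each SE was derived from the fold change and the F statistic. The comparisons between regions used 1 fit of both regions per type. Each group held 3 mice, so p-values measure the spread between these mice, and intervals and floors cover counting error only. The fits were tested on simulated data. Versions were R 4.3.3, edgeR 4.0.16, limma 3.58.1, DESeq2 1.42.0, Python 3.11.15, leidenalg 0.10.2, igraph 0.11.9, numpy 2.4.6, pandas 2.3.3, scikit-learn 1.9.0 and scipy 1.17.1.

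The members and lists were chosen with earlier results of these data known. The text names all 8 members and, of the wider autophagy list, up to 3 called genes with the largest rise and 3 with the largest fall in excitatory neurons and microglia whose GF and SPF values did not overlap. It also names the 3 genes of highest Pearson r with each member, on log2 CPM with a pseudocount of 1. The same mouse number in Hip and PFC marks the same animal, and deviations from group means correlated at 0.209 to 0.424 within a mouse and at -0.3 to -0.044 between mice of a group. Such deviations cancel out within a group, so positive values within a mouse bring negative ones between mice. Alternatives were DESeq2, RLE factors, no filter, only the compared groups, thinning, a marker gate per nucleus (at least 3 markers with a UMI and 2 times the second list), removal of likely doublets, a length and GC offset fitted in each library, each mouse left out, and the mouse as a replicate block. Dentate granule neurons alone, and PFC interneurons without clusters led by Rgs9, were added after seeing the data.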

Additional observations from a re-analysis of the deposited data

Results flagged for a closer look

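The change from SPF to GF mice differed between Hip and PFC, by the test of that difference in 1 fit of both regions, in 7 sums of member and type. In excitatory neurons it was higher in Hip by 2.24 for Map1lc3a, 1.64 for Gabarapl1 and 1.13 for Gabarap on the log2 scale. In interneurons it was higher in Hip by 2.02 for Map1lc3a, 1.46 for Gabarapl1 and 0.88 for Gabarap. In microglia it was lower in Hip by -1.37 for Gabarapl2. The marker gate and the removal of length and GC trends were not run on these differences. Depth in UMIs differed between GF and SPF mice in both regions, in opposite directions. GF libraries had 4678 to 5905 median UMIs per nucleus against 6172.5 to 7087 in SPF libraries of Hip, and 6795.5 to 7426.5 against 3037 to 3208 in PFC. After thinning to the lowest mean UMIs per nucleus, the differences in neurons stayed called, and the microglial one was as large but not called (-1.41, SE 0.59, adjusted p = 0.0992). Thinning was applied to sums of nuclei already clustered and named at full depth. Depth and the GF group cannot be told apart in PFC, so the part of depth in these differences was not tested.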

How the results depend on the processing

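Of the GF against SPF and between-region tests of single members, DESeq2 left 156 on the same side of the threshold, gained 1 call and lost 7, RLE factors kept 162 and gained 2, and no filter kept 155, gained 6 and lost 3. Thinning kept 151, gained 2 and lost 10, the fit of only the compared groups kept 79, gained 2 and lost 1, and leaving out likely doublets kept 76, gained 4 and lost 2. The marker gate kept 72, gained 7, lost 1 and turned Map1lc3a of PFC microglia from 0.56 to -0.40, and the count of members lower in GF than SPF mice of PFC was 8 in place of 5. Removing the length and GC trend kept 60, gained 6, lost 15 and turned Gabarap of PFC excitatory neurons from 0.07 to -0.28. The marker gate and the removal of the length and GC trend were not run on the between-region tests. Nor were the removal of likely doublets and the fit of only the compared groups. The count of members with a lower change in Hip than PFC, 1, was 0 with DESeq2 and with thinning. The cause was not tested. With single mice left out, the counts in Hip ran from 19 to 26 higher and 1 to 3 lower for GF against SPF, the lower count being 1 without GF mouse 6 or SPF mouse 30, and from 22 to 26 and 1 to 3 for GF against CGF. In PFC they ran from 12 to 20 and 4 to 5, and from 16 to 20 and 5 to 6. Hip against PFC in SPF mice gave 4 to 8 higher and 4 to 12 lower, the difference between regions 5 to 7 and 0 to 1, and CGF against SPF 0 throughout. With the mouse as a replicate block across regions, no call was lost and 2 were gained, Gabarap higher in Hip OPC of SPF mice (0.89, adjusted p = 0.0247) and the regional difference of Map1lc3a in astrocytes (0.72, adjusted p = 0.0205). Dentate granule neurons alone left 7 of 7 tests on the same side, and PFC interneurons without clusters led by Rgs9 kept 6 and gained 1. Depth limits PFC most, where SPF and CGF libraries held fewer UMIs, and Optn was too low to test in microglia.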

Other observations

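Across the 12 sums of type and region, some genes of the wider autophagy list had the same direction in most types; they were chosen after their values were seen. Lamp1, a glycoprotein of the lysosomal membrane, was higher in GF than in SPF mice in 10 of 12 (0.42 to 1.67 over all 12). Atg101 was higher in 9 of 11 where it was tested (up to 2.63), Atg4d in 9 of 10 (0.75 to 1.57), Atg3 in 9 of 12 (-0.12 to 2.06) and Vmp1, a membrane protein of the endoplasmic reticulum needed for autophagosome formation, in 9 of 12 (0.10 to 2.25). None of these was called lower in any of the 12. In the other direction, the initiation kinase Ulk1 was lower in 9 of 12, Tollip and Wipi2 in 8 of 12 each and Pik3c3 in 7 of 12, and they were called higher in 0. Such recurrence was about as frequent over all genes. Of the 7927 genes tested in at least 10 of the 12 sums, 651 (8.21%) were called higher in 9 or more and 1016 (12.8%) lower in 7 or more, against 5 (9.43%) and 4 (7.55%) of the 53 such genes of the list. In PFC excitatory neurons the level of Ccpg1, a receptor for the endoplasmic reticulum, averaged 0.24 CPM in GF and 5.16 in SPF mice.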
